A study of Mus musculus with 4 samples.

Results

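The regions described here were 4221 dense runs of CpG dinucleotides that lie inside protein-coding genes and away from gene ends. A run, called a cluster, held at least 20 CpGs with gaps of 50 bp or less and spanned at least 200 bp. Its midpoint lay on chromosomes 1 to 19, inside an annotated protein-coding gene and more than 2 kb from both ends of every annotated gene. These 4221 were part of 23311 such clusters found by the same spacing rule on chromosomes 1 to 19 and X, of which 14938 lay within 2 kb of an end of a protein-coding gene. Membership used positions only and no methylation value. The cells were mouse germline stem (GS) cells, which are spermatogonial stem cells of the testis kept in culture. Both groups came from Green mice, a C57BL/6 line that carries an EGFP transgene under an actin promoter, placed on a DBA/2 background, and both are labelled wild type. One group had been cultured for about 5 months (5M-GS) and the other for about 60 months (60M-GS), both in Iscove-based medium with human FGF2, rat GDNF and 1% fetal bovine serum. Each group had 2 replicates, and the labels do not say whether the groups are the same line sampled at different ages or how many animals they came from.

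DNA methylation in mammals is placed almost entirely on CpGs, and it is dense over most of the genome while CpG-rich stretches at promoters usually stay free of it. Many CpG-rich stretches also lie inside genes, where some act as starts of alternative transcripts, some overlap exons and others have no known role. Inside transcribed genes such stretches can carry methylation that ordinary promoters lack, and they are one of the places where methylation differs most between tissues.

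Of the 4210 clusters with enough calls to test, 666 contained the start of a transcript listed by RefSeq for mouse (GRCm38.p6, the build that matches the mm10 coordinates of the files). For the other 3544 the start table used here lists no start, and the table is not complete. The start windows, from 250 bases before to 50 bases after a start, are the only sequence given here for these regions. The first 5 below belong to clusters in which methylation was higher in 60M-GS and are the 5 of the 9 such clusters with the largest differences. The last is from the Dnmt3a cluster, one of the pair with the most CpGs, which stayed under 1% in both groups and shows how dense the CpGs of such a start can be. They are written 5′ to 3′ on the strand of the gene, are the C57BL/6J reference and not the cells' own sequence, and have each CpG in capitals.
Zap70 (chr1:36778734-36779033, plus strand): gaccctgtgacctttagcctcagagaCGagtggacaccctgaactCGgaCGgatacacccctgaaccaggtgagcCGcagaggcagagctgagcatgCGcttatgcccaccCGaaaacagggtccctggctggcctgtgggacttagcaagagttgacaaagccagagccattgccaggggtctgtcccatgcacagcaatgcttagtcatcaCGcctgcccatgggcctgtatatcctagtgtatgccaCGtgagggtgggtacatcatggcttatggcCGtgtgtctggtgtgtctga
Slc44a2 (chr9:21337578-21337877, plus strand): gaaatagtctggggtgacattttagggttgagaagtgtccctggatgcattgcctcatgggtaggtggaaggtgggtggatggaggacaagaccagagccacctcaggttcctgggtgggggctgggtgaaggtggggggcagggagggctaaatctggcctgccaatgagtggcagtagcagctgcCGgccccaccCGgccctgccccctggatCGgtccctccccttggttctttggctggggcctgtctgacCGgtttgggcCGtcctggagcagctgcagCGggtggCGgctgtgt
Pde4a (chr9:21183851-21184150, plus strand): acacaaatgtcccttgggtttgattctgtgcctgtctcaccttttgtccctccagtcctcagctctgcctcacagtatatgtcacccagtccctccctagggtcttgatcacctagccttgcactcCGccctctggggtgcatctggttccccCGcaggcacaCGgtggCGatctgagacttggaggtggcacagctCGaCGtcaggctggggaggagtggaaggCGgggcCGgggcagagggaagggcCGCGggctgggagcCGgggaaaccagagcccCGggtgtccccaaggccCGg
Abr (chr11:76437256-76437555, minus strand): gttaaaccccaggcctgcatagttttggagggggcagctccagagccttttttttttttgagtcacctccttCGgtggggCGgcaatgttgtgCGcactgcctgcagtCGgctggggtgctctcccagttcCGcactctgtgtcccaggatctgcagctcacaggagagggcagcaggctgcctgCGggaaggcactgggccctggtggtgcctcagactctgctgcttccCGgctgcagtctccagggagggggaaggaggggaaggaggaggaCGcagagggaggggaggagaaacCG
Kcnh2 (chr5:24329542-24329841, minus strand): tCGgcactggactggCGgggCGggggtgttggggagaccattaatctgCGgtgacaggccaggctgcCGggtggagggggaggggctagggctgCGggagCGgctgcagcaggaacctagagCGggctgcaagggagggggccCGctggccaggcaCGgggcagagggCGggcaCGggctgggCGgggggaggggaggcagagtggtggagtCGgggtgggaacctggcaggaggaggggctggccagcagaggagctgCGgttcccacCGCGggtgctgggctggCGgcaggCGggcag
Dnmt3a (chr12:3806910-3807209, plus strand): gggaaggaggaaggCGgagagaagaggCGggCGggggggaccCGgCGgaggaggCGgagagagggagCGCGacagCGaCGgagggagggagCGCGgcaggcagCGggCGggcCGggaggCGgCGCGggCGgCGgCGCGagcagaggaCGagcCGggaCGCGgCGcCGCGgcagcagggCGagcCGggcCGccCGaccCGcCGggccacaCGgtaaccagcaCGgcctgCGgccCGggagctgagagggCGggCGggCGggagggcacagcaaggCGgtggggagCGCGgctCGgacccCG
The capitals number 9 CpGs in the Zap70 window, 7 in Slc44a2, 13 in Pde4a, 9 in Abr and 19 in Kcnh2, against 47 in Dnmt3a.

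Methylation was read by whole-genome bisulfite sequencing with post-bisulfite adaptor tagging (PBAT), which converts unmethylated cytosines before adaptors are added. The 2 replicates of a group had been pooled in 1 table, so each value below has no replicate error. In all, 19371838 CpGs were covered by 468121185 calls in 5M-GS (median 21 per CpG) and 19341319 by 471693518 calls in 60M-GS (median 22). A cluster's level is its share of methylated calls, in percent, summed over those of its CpGs that had at least 5 calls in each table. The median cluster had 29 CpGs over 429 bp, with 722 calls in the younger cells and 732 in the older, and 11 of the 4221 had too few CpGs to test. The 2 tables were compared at each cluster with a two-sided Fisher's exact test, and p-values were adjusted by Benjamini and Hochberg's method over all 23238 testable clusters. Where a pair of levels is given as X% and Y%, the 5M-GS value comes first. A cluster is said to have gained or lost where the adjusted p was under 0.05 and the difference at least 20 percentage points. The 95% intervals given are Wilson intervals, those of differences are Newcombe intervals, and both cover counting error only. The test compares the 2 pooled tables and not the 2 culture ages, and neighbouring calls can come from the same read, so a stricter test was also run in which the calls of a cluster were divided by its number of CpGs.

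Levels fell into 2 large sets that were alike in both tables. Of the 4210 tested clusters, 2427 (57.6%) were under 10% in both groups and 1116 (26.5%) were at 70% or more in both. Against these sets, 516 clusters (12.3%) in 454 host genes gained and 8 (0.190%) lost. Over all clusters the same rule called 5.13% as gained and 0.12% as lost. With divided calls 344 of the intragenic clusters gained and 3 lost, against 3.04% and 0.0129% of all clusters. The median difference, 60M-GS minus 5M-GS, was 0.190 points, beside 0.0877 points over all clusters, so that most intragenic clusters had nearly the same level in both tables. Among clusters within 2 kb of a protein-coding end, 295 of 14925 (1.98%) gained. The share was 135 of 1632 (8.27%) at ends of other genes only and 207 of 2052 (10.1%) outside all genes. With divided calls 189 gained at protein-coding ends, 86 at other ends and 74 outside genes, beside the 344 inside genes. In proportion, the count outside genes (207 to 74) dropped more than the count inside genes (516 to 344). The difference between these classes was not tested, since clusters are not replicates of a culture age.

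**Figure D1:**
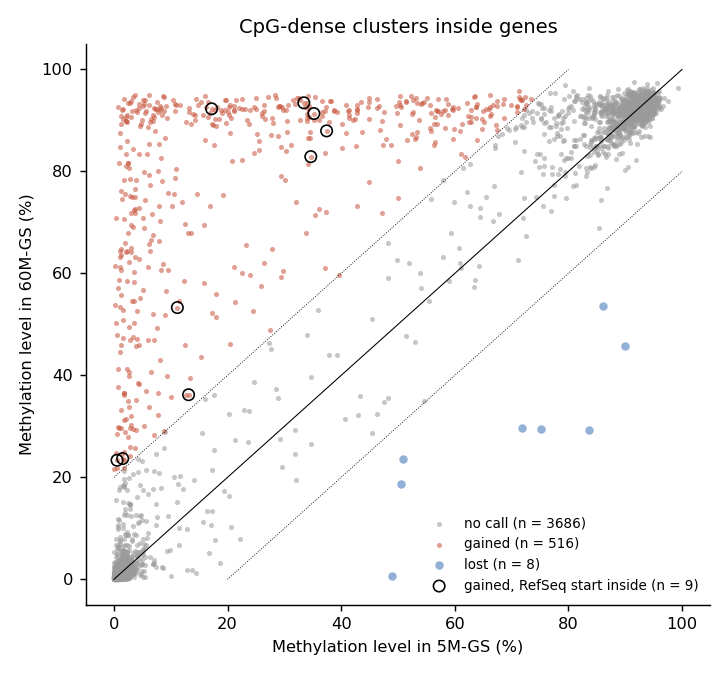
Each point is 1 tested intragenic cluster, with its methylation level (%) in 5M-GS on the x axis and in 60M-GS on the y axis, coloured by whether it gained, lost or neither. The 516 that gained lie above the diagonal, mostly along the top, and the 8 that lost lie below it.

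The gains came from clusters of every starting level below 70%. There were 2692 clusters that began under 10%, and 209 of them (7.76%) gained. Of 161 between 10% and 30%, 120 (74.5%) gained, and of 233 between 30% and 70%, 175 (75.1%) gained and 3 lost. Of 1124 at 70% or more, 12 gained and 5 lost. With divided calls 164, 96, 84 and 0 gained in these 4 classes, and the losses were 1 between 30% and 70% and 2 at 70% or more. Over all clusters, 493 of 19730 (2.50%) gained from under 10%. In the classes at 10% to 30% and 30% to 70%, 261 of 377 (69.2%) and 406 of 580 (70%) gained. At protein-coding ends the shares were 157 of 14509 (1.08%), 60 of 79 (75.9%) and 76 of 83 (91.6%). Divided calls gave 364, 192 and 151 gains, and 111, 48 and 30 at these ends. Outside genes the middle classes had 44 of 83 and 95 of 183. High shares in the middle classes were thus not particular to intragenic clusters. Classes by 5M-GS level share its counting error with the difference. Over the 516 gained clusters the median level was 17.8% for the younger cells and 89.0% for the older. The median of their differences was 53.3 points, and 329 of the 516 ended at 80% or more. A full change of state, from under 10% to at least 70%, was seen in 99 clusters in 94 host genes, and 72 of them reached at least 80%. No cluster went the opposite way, from at least 70% to under 10%. Gained clusters were found on each of the 19 autosomes, from 7.05% of the tested clusters of chromosome 6 to 14.8% of those of chromosome 13. Without chromosomes 15, 16 and 17, 445 of 3679 clusters gained.

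In most gained clusters the higher level covered the whole cluster and not only its edges. In the 500 gained clusters outside chromosome 18, which was counted but not described singly, 13700 of 13922 CpGs were higher in 60M-GS and 12627 (90.7%) were higher by at least 20 points. Every CpG was higher in 390 of the 500 (78%). In 286 of them (57.2%) the lowest CpG in 60M-GS was above the highest CpG in 5M-GS. The outer parts of gained clusters went from a median of 18% in 5M-GS to 88.4% in 60M-GS, and the middle parts from 16.8% to 88.9%. The summed calls around gained clusters showed a dip in 5M-GS, with 25.9% and 23.8% in the 250-bp bins on either side of the midpoint and 67.8% at 1.9 kb on both sides. In 60M-GS the same central bins stood at 75.1% and 74.7%, and the bins at 1.9 kb at 72.3% and 70.9%. In 60M-GS a shallow dip was still seen at the clusters, since the next bins, centred 375 bp out, stood at 77.6% and 77.4%. In 5M-GS these next bins stood at 31.9% and 32.3%. The median gained cluster spanned 395 bp, so in the summed calls the difference also reached past the cluster edges. The bins at 1.9 kb differed less between groups than the central ones. These clusters were chosen by their difference, so the values inside them describe the calls and test nothing. The counts of higher and non-overlapping CpGs were not made over all clusters, so no share stands beside them.

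**Figure D2:**
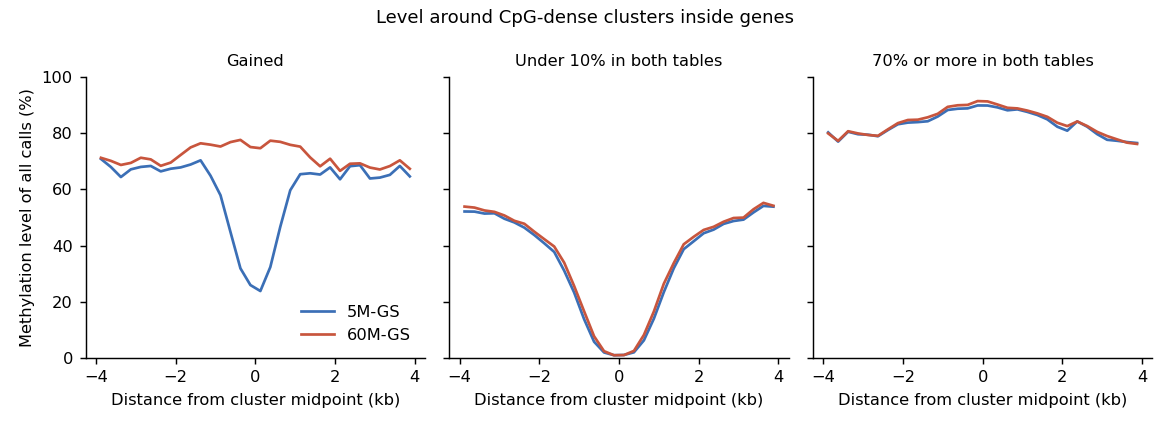
Methylation level (% of all calls, y axis) by distance from the cluster midpoint (kb, x axis, 250-bp bins) in 5M-GS and 60M-GS, for the sets of clusters named above each panel. In the gained set the central 5M-GS bins are at 25.9% and 23.8%, and those of 60M-GS at 75.1% and 74.7%.

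Gained clusters were smaller and less dense than those that stayed low. Their median was 25 CpGs at 6.65 CpGs per 100 bp, against 41 CpGs at 8.65 per 100 bp in the clusters under 10% in both groups. Clusters at 70% or more in both had a median of 23 CpGs at 6.17 per 100 bp. By size, 362 of 2156 clusters (16.8%) with 20 to 29 CpGs gained, 135 of 1261 (10.7%) with 30 to 59, and 19 of 793 (2.40%) with 60 or more (236, 95 and 13 with divided calls). The order was the same among clusters that began under 10%, at 136 of 933 (14.6%), 62 of 986 (6.29%) and 11 of 773 (1.42%), or 109, 47 and 8 with divided calls. At protein-coding ends the matching shares of clusters under 10% were 94 of 2973 (3.16%), 53 of 5285 (1.00%) and 10 of 6251 (0.160%), or 70, 35 and 6 with divided calls. In each size class the intragenic share was above the share at ends. Outside genes, 53 of 501 small clusters under 10% gained (10.6%), 33 of them with divided calls. Depth moved with these sets, at a median of 26.3 and 26.7 calls per CpG in the gained clusters against 21.6 and 21.9 in those under 10% in both, and its part in the result was not tested.

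The level of the DNA beside a low cluster also went with its outcome. The flanks were taken as the CpGs 500 to 2000 bp beyond each edge, which enter neither the cluster's level nor its call. Among clusters under 10% in 5M-GS, 31 of 994 (3.12%) with flanks under 30% gained. With flanks at 30% to 70%, 53 of 896 (5.92%) gained, and with flanks at 70% or more, 125 of 801 (15.6%). Divided calls gave 26, 37 and 101 gains in these classes. By size and flank level at once, small clusters of 20 to 29 CpGs inside highly methylated flanks gained in 83 of 263 cases (31.6%). Clusters of 60 or more CpGs in such flanks gained in 9 of 231 (3.90%). With flanks under 30%, clusters of 20 to 29 and of 30 to 59 CpGs were alike, at 14 of 370 (3.78%) and 15 of 382 (3.93%). Small clusters in highly methylated flanks also began higher, at a median of 1.76% in 5M-GS against 0.684% in flanks under 30%. The flanks of gained clusters had medians of 81.4% and 86.0%, against 44.0% and 47.9% for clusters under 10% in both.

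**Figure D3:**
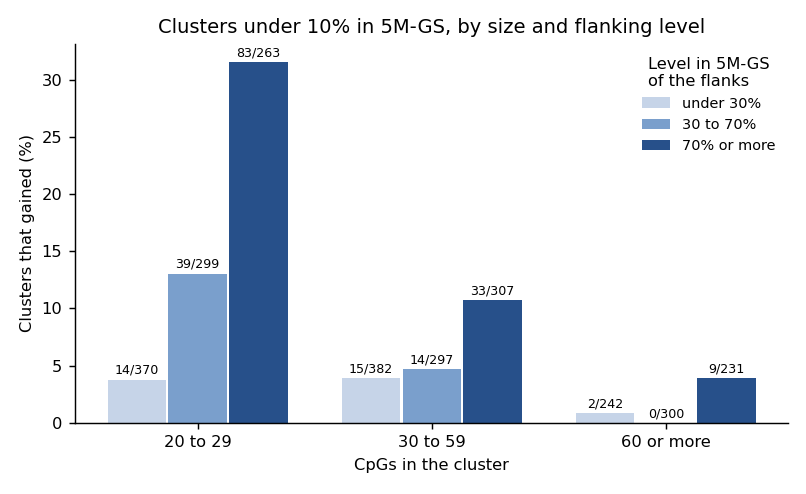
Percent of the initially low (under 10%) clusters that gained (%, y axis, from 0) by number of CpGs (x axis), with bars for 3 classes of flank level in 5M-GS. The highest bar is 31.6%, for clusters of 20 to 29 CpGs with flanks at 70% or more.

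Gained clusters lay toward the 3′ part of their genes. For the 3318 clusters whose host gene has a strand in the start table, position was measured from the 5′ end as a percent of gene length. The median was 66.1% for gained clusters, 35.0% for those under 10% in both and 67.6% for those at 70% or more in both. In the first 25% of the gene lay 13.4% of the 397 gained clusters with a known position and 38.7% of the clusters under 10% in both, and the last 25% held 35.8% and 14.5%. Over all 3312 tested clusters with a known position the median was 48.5%, with 27.4% in the first 25% and 24.5% in the last. By distance to the nearest gene end, 187 of 1770 clusters (10.6%) at 2 to 5 kb gained, 219 of 1604 (13.7%) at 5 to 20 kb and 110 of 836 (13.2%) beyond 20 kb (132, 141 and 71 with divided calls). Over all clusters, gene ends included, 3.45% gained at 5 kb or less, 12.3% at 5 to 20 kb and 12.4% beyond 20 kb. These shares of all clusters include the intragenic ones, which were 1604 of 2618 tested clusters at 5 to 20 kb and 836 of 1789 beyond 20 kb. A likeness beyond 5 kb therefore says little. Outside genes the shares in the same order of distance were 7.08%, 9.62% and 11.7%. With divided calls 13 of 339, 24 of 842 and 37 of 871 clusters outside genes gained. The gene table used here holds no exons, so whether a cluster is exonic or intronic was not examined.

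Clusters that contain a RefSeq start rarely gained. Of the 666, 651 were under 10% in both groups and 9 gained (1.35%), 4 of them also with divided calls. Without a listed start 507 of 3544 (14.3%) gained, or 340 with divided calls. Restricted to clusters under 10% in 5M-GS, the counts were 2 of 657 (0.304%) with a start and 207 of 2035 (10.2%) without. With divided calls these were 0 and 164. The counts were not split by number of CpGs. The 9 were noticed after their values were seen. Zap70, a kinase of T cell receptor signalling, had a cluster at 33.4% and 93.5%. The cluster in Slc44a2, a choline transporter-like protein, stood at 17.2% and 92.3%, and that in Pde4a, a cyclic AMP phosphodiesterase, at 35.2% and 91.4%. Abr, a regulator of small GTPases, had 37.4% and 88.0%, and Kcnh2, which encodes a cardiac potassium channel, 34.7% and 82.9%. All 5 sat at intermediate levels in 5M-GS. The other 4 ended lower, with 11.2% and 53.3% in Cuedc1, 13.1% and 36.2% in Rnf212b, 1.54% and 23.7% in Insc, and 0.546% and 23.4% in Dhx30. The start windows of the gained clusters, 5 of which are printed above, were CpG-poor beside those of low clusters. The 9 gained windows held a median of 12 CpGs (6 to 19), and the 651 windows of clusters under 10% in both held a median of 24 (6 to 67). Of those 651, 204 also held 19 CpGs or fewer, so a low count was not particular to gained windows. A window can reach past its cluster: the whole Zap70 window was at 66.0% and 88.8%, and in Abr 4 of the 9 CpGs of the window were measured.

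The largest gains went from nearly unmethylated to nearly full. In Pomk, which encodes a kinase of the glycans of dystroglycan, a cluster of 25 CpGs at chr8:25986132-25986490 had 10 of 563 calls methylated in 5M-GS (1.78%, 0.968% to 3.24%). In 60M-GS it had 568 of 603 (94.2%, 92.0% to 95.8%), a difference of 92.4 points (89.8 to 94.2). The adjusted p of Fisher's exact test was 6.33e-270, and 7.84e-11 with divided calls. Its 19 measured CpGs did not overlap between groups, with a highest of 8.33% in 5M-GS and a lowest of 71.4% in 60M-GS. The flanks of the Pomk cluster were at 90.7% and 90.9%. In Pcolce2, an enhancer of procollagen processing, 21 CpGs at chr9:95670025-95670286 stood at 0.725% and 92.7% (adjusted p = 2.32e-270 by Fisher's exact test). In Spred2, an inhibitor of Ras signalling to ERK, 58 CpGs at chr11:20020565-20021320 stood at 3.32% and 94.7%. The cluster of Grm6, a glutamate receptor of retinal bipolar cells, was at 3.69% and 95%. Prickle1, a planar cell polarity protein, had 39 CpGs at chr15:93503078-93503663 with 2.46% and 93.3%. The flanks of Pomk, Pcolce2, Spred2, Prickle1 and Mettl25 were between 89.3% and 92.8% in both groups. Some other flanks among the 15 largest gains were lower, as given below. Flanks at 70% or more in 5M-GS were seen for 348 of the 516 gained clusters (67.4%). The share was 650 of 2426 (26.8%) for clusters under 10% in both groups.

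The others of the 15 largest gains were spread over regulators of several kinds. Transcription factors among the hosts were Zic4 (3.0% and 93.8%), Tshz3 (2.81% and 93.4%), Foxp1 (6.19% and 94.9%) and Trerf1 (3.12% and 91.8%). Their flanks were not all methylated: those of Zic4 were at 12.7% and 59.1%, and those of Tshz3 at 8.22% and 17.7%. Tiam1, which activates the GTPase Rac, had a cluster at 1.41% and 92.0%, where the highest of the 25 CpGs was 9.38% in 5M-GS and the lowest 76.9% in 60M-GS. Arid1b, a subunit of the BAF chromatin remodelling complex, had 4.37% and 93.3%. Keap1, the adaptor that marks the stress factor Nrf2 for degradation, had 2.32% and 91.0%. The remaining hosts were Mettl25 (1.63% and 92.3%), the zinc finger gene Zfp810 (1.17% and 90.8%) and Proser1 (5.03% and 94.0%). All 15 passed the test with divided calls.

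**Figure D4:**
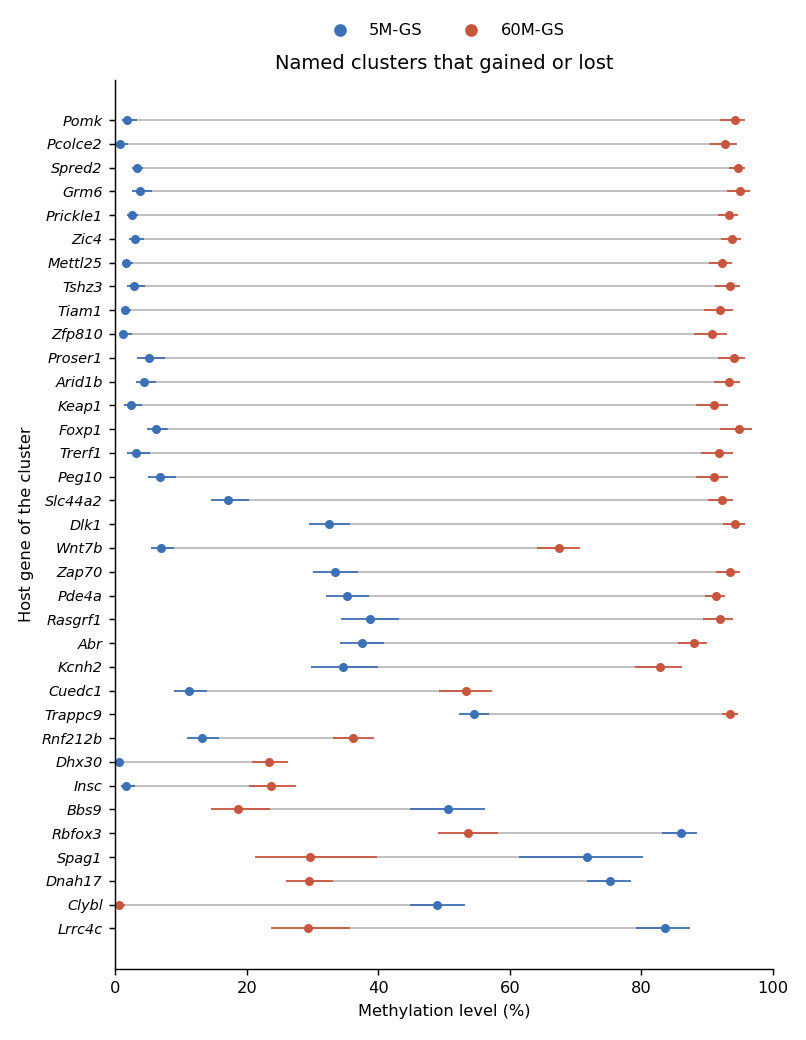
Methylation level (%, x axis) in 5M-GS and 60M-GS of clusters named in the text, 1 row per cluster, with 95% Wilson intervals that cover counting error only. In the Pomk row the points are at 1.78% and 94.2%, and in the Clybl row at 49.0% and 0.587%.

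**Figure D5:**
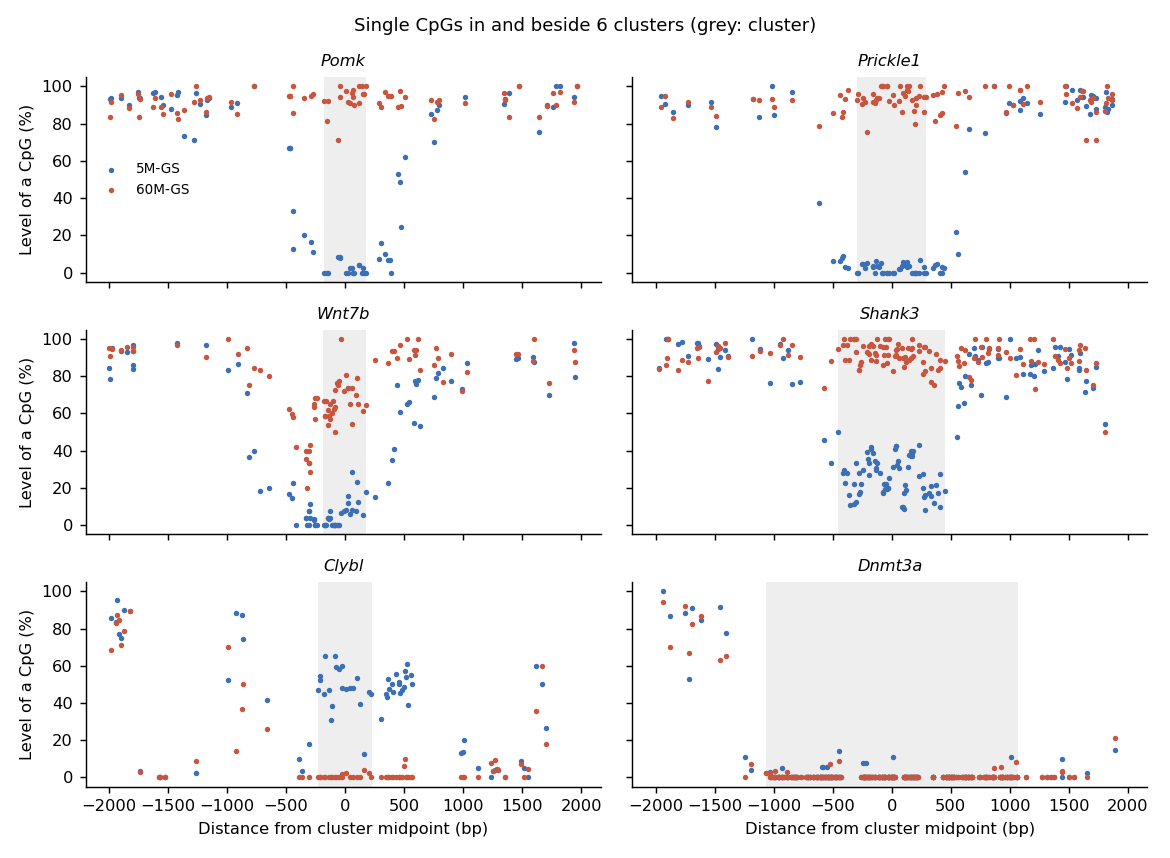
Level of single CpGs (%, y axis) by distance from the cluster midpoint (bp, x axis) in and beside 6 clusters, with the cluster shaded grey and 1 colour per group. In Pomk and Prickle1 the 5M-GS points are low inside the cluster and also past its edges, as at 392 bp in Pomk (0% and 95%). The 60M-GS points stay high there, and inside the Dnmt3a cluster both groups are low.

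Losses were few and mostly partial. The cluster of Clybl, which encodes a mitochondrial enzyme of citramalyl-CoA metabolism, at chr14:122202475-122202927 had 260 of 531 calls methylated in 5M-GS (49.0%, 44.7% to 53.2%) and 4 of 681 in 60M-GS (0.587%, 0.229% to 1.5%). The lowest of its 21 CpGs was 12.5% in 5M-GS and the highest 3.85% in 60M-GS, so they did not overlap. Clybl kept its call with divided calls (adjusted p = 0.000412, Fisher's exact test), as did Dnah17, an axonemal dynein heavy chain, at 75.2% and 29.4% (adjusted p = 0.0279). Lrrc4c, a synaptic adhesion protein, had 83.7% and 29.3%, and Rbfox3, a neuronal splicing regulator, 86.1% and 53.6%. In Spag1, a factor for dynein assembly, the levels were 71.8% and 29.7% on 85 and 91 calls, and in Bbs9, a BBSome subunit, 50.5% and 18.6%. The calls of Lrrc4c, Rbfox3, Spag1 and Bbs9 were not reached with divided calls (adjusted p = 0.788, 0.308, 1 and 1, Fisher's exact test). The other 2 of the 8 lie in a predicted gene and on chromosome 18.

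The clusters with the most CpGs stayed low in both groups. Zfp316, a zinc finger gene, held 289 CpGs at 0.815% and 0.982%, with a difference of 0.166 points (-0.173 to 0.504). Dnmt3a, which encodes a de novo DNA methyltransferase, also held 289 CpGs, 212 of them measured, at 0.460% and 0.357% (difference -0.103 points, -0.485 to 0.273). Ccdc177, with 263 CpGs, stood at 0.922% and 1.77%, a difference of 0.847 points that had an adjusted p of 0.00281 by Fisher's exact test and was far below 20 points.

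Clusters of 1 gene did not always share an outcome. Of the 2785 host genes, 830 held at least 2 clusters, and 207 of these had a gain. In 179 of the 207 at least 1 other tested cluster of the same gene did not gain, and in 28 every tested cluster gained. In all, 53 host genes had 2 or more gains. Of all tested intragenic clusters 12.3% gained, and whether gains go together within host genes was not tested. Plec, which encodes the cytoskeletal linker plectin, held 14 clusters: 10 lay between 91.4% and 95.5% in 5M-GS, 3 were under 1%, and the 1 that gained went from 42.7% to 85.0%. In Fat1, a giant cadherin, 3 of 13 gained, from 53.2%, 55.2% and 66.0% to 94.4%, 94.3% and 92.2%, and with divided calls the middle one of these kept its call. Gse1 had 2 gains among 11, at 30.2% and 78.3% and at 1.88% and 75.5%. Zfhx3, a zinc finger homeobox factor, had 1 among 11, at 19.5% and 94.0%, beside a cluster at 17.8% and 7.75% that was not called. A further pair of hosts was picked after their values were seen. Ryr1, the calcium release channel of skeletal muscle, had 5 gains among 9 clusters, the highest at 20.3% and 92.7% and the lowest at 0.732% and 29.8%. Camta1, a calmodulin-binding transcription activator, had 4 among 7, including 1.38% and 74.7%, while its cluster of 176 CpGs was at 0.425% and 0.355%.

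The title of the series names Wnt7b and the Jnk pathway. Wnt7b, a Wnt ligand, held 4 clusters. The 1 at chr15:85537494-85537856, with 31 CpGs, had 57 of 822 calls methylated in 5M-GS (6.93%, 5.39% to 8.88%) and 538 of 797 in 60M-GS (67.5%, 64.2% to 70.7%). The difference was 60.6 points (56.7 to 64.1), with an adjusted p of 5.72e-154 by Fisher's exact test and 0.00057 with divided calls. All 31 CpGs were higher, from a highest of 28.6% in 5M-GS to a lowest of 50% in 60M-GS. Of the other Wnt7b clusters, 1 was at 95.1% and 94.0%, and those of 45 and 61 CpGs were at 0.722% and 0.60% and at 1.79% and 1.19%. Among the 17 tested clusters in genes of the JNK kinase cascade, 1 gained (5.88%), in Map3k1, an upstream kinase, at 21.2% and 91.9%. The median difference of that list was -0.195 points, and 12.3% of all tested intragenic clusters gained. No cluster lay inside Mapk8, Mapk9, Mapk10 or Jun.

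Among genes of Wnt signalling, Wnt7b and Prickle1 included, gains were seen in ligands, receptors and polarity proteins. Of 65 tested clusters in 40 Wnt genes, 13 (20%) in 12 genes gained and none lost, with a median difference of 0.0932 points. With divided calls 9 gained. Over all 4210 tested intragenic clusters 516 (12.3%) gained, 344 with divided calls. The difference of a gene list from that share was not tested. Of the ligands, Wnt9b stood at 11.6% and 93.0%, Wnt5a at 3.97% and 78.4%, and Wnt6 at 12.6% and 36.2%. The receptor gene Fzd5 had 2 gains, at 3.47% and 60.2% and at 1.16% and 53.4%, Fzd7 had 62.4% and 90.8%, and the coreceptor Ror2 5.37% and 93.2%. The polarity genes Vangl2, Celsr1 and Celsr2 stood at 26.1% and 91.0%, 58.5% and 94.2%, and 59.5% and 92.3%. Pygo1, a nuclear cofactor of beta-catenin, had 0.490% and 28.4%. The calls of Celsr2, Fzd7, Pygo1 and Wnt6 were not reached with divided calls.

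Chromatin regulators had 11 gains in 66 tested clusters (16.7%), beside 12.3% of all tested intragenic clusters, or 10 gains with divided calls. Their median difference was 0.263 points. Hdac5, a histone deacetylase, stood at 8.80% and 94.7%. Prdm16, a zinc finger regulator with a PR domain, had 2 gains among 8 clusters, at 4.90% and 90.1% and at 3.17% and 75%, while the other 6 lay between 87.2% and 97.2% in both groups. Smarca2, a BAF ATPase, had 22% and 92.5%. Tet1, a dioxygenase that oxidises methylcytosine, had 56.4% and 85.1%. Of these, the call of Tet1 was not reached with divided calls.

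Developmental transcription factors had 18 gains in 268 clusters (6.72%), beside 12.3% of all tested intragenic clusters, or 11 gains with divided calls. Their median difference was 0.151 points, and 234 of their clusters were under 10% in 5M-GS. Isl1, a LIM homeodomain factor, had 3.02% and 90.7%, and Lhx2, of the same family, 7.14% and 90.6%. Six2, a kidney progenitor factor, stood at 1.08% and 63.3%, and Ebf3 at 8.34% and 82.6%. The list shares Zfhx3, Prdm16 and Pax7 with results given elsewhere in the text.

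Genes of synapses and ion channels had 18 gains in 119 clusters (15.1%), or 13 with divided calls, with a median difference of 0.293 points. The share over all tested intragenic clusters, for this list and those below, was 12.3%. The axon guidance gene Ntn1 stood at 13.1% and 92.5%, and the glutamate receptor subunit gene Grin2d at 3.72% and 74.9%. Kcnh2 had gains at 3 of its 4 clusters, of which 2 hold no listed start, at 8.94% and 86.6% and at 8.41% and 78.1%, while its cluster of 74 CpGs was at 0.501% and 0.60%. Shank3, a postsynaptic scaffold, had a cluster of 76 CpGs at 26.4% and 91.9%, where all 73 measured CpGs were higher. The other Shank3 clusters, of 198 and 69 CpGs, were at 0.640% and 0.948% and at 0.821% and 1.28%. Genes known for internal promoters had 15 gains in 161 clusters (9.32%; 7 with divided calls), among them Cdkn2a, the locus of the cell cycle inhibitors Ink4a and Arf, at 28.6% and 94.5%, and the phosphatase Ptprs at 32.7% and 94.1%. Their median difference was 0.0329 points. Giant scaffold and cytoskeletal genes had 12 gains and 1 loss in 138 clusters (8.70% gained; 8 gains with divided calls), with Obsl1 at 41.2% and 91.9%, Zfp469 at 0.618% and 47.9% and Ank3 at 40.8% and 87.6%. The median difference over these giant genes was 0.186 points, and the loss was that of Dnah17.

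Most clusters in imprinted host genes were not called. Imprinted genes are expressed from 1 parental copy, and many carry methylation on 1 copy only. Of 32 tested clusters in 17 such genes, 6 (18.75%) gained, 4 with divided calls, beside 12.3% of all tested intragenic clusters. The median difference was 0.0161 points. Peg10, a retrotransposon-derived gene, stood at 6.81% and 91.0%. Dlk1, a Notch ligand homologue, stood at 32.5% and 94.3%, Rasgrf1, a Ras exchange factor, at 38.7% and 92.0%, and Trappc9 at 54.5% and 93.6%. Zdbf2 had 1.94% and 28.9% on 152 calls in 60M-GS, and Snrpn, a splicing factor gene, 50% and 74.9%. The calls of Zdbf2 and Snrpn were not reached with divided calls. The other 26 clusters were not called. They include 7 in Gnas, where differences ran from -2.48 to 1.35 points, and 4 in Jade1, where they ran from -0.191 to 1.17 points. In Sfmbt2, 1 of 5 clusters stood 15.3 points higher, below the limit of 20. Whether any of these clusters is an imprint control region was not examined.

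Genes of spermatogonial stem cells gave 1 gain in 14 clusters (7.14%), in Pax7, a marker of a rare spermatogonial population, at 37.4% and 72.0%, a call not reached with divided calls. The median difference over the 14 was 0.297 points, and 12.3% of all tested intragenic clusters gained. Genes of meiosis and germline defence had no call in 6 clusters by Fisher's exact test, with 0 also at an unadjusted p under 0.05. Their median difference was 0.538 points, and Tdrd7, a Tudor-domain protein of germ granules, was at 0.410% and 0.426%. The 10 lists overlap, and they were drawn up with earlier results of these data known. As a check of the labelled cell type, the start windows of 6 genes whose promoters are unmethylated in germ cells (Ddx4, Dazl, Mael, Sycp3, Tex101 and Slc25a31) lay between 1.83% and 5.05% in 5M-GS and between 0.219% and 3.40% in 60M-GS. Methylation gives no expression level of any of these genes.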

How the data were processed

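Libraries were made from testis-derived GS cell DNA by PBAT, per the labels' protocols. The submitters' processing notes name Bismark 0.10.0 and the mm10 build. The tables the authors deposited, 1 per culture age, give each CpG's methylated and unmethylated counts and the percent methylated, computed by the authors. How reads were filtered or deduplicated is not stated in the labels. Both replicates of an age share 1 table without a replicate column.

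Levels and tests were computed from the counts with Python 3.11.15, numpy 2.4.6, pandas 2.3.3 and scipy 1.17.1. The deposited percent column served as a check and matched the counts at every CpG to within 1e-06 points. Only CpGs with 5 or more calls in each table entered, and a cluster needed 4 of them. Fisher's exact test was checked on simulated data. Genes and starts came from RefSeq tables of GRCm38.p6. Named clusters were the 15 largest gains, up to 10 largest losses, the 3 with most CpGs, the 3 hosts with most clusters, up to 4 calls per gene list, and those in Wnt7b, JNK and imprinted genes, without predicted genes or chromosome 18. Others are said to be picked after their values were seen, as were further calls of a list. The clusters, lists and rules were chosen with earlier results of these data known.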

Additional observations from a re-analysis of the deposited data

How the results depend on the processing

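No paired analysis was possible because the replicates of an age were pooled in 1 table, and leaving out a replicate could not be run for the same reason. Gaps of up to 100 bp gave 1861 gains and 127 losses among 16493 clusters, which are mostly other clusters. At least 30 CpGs gave 154 gains, 1 loss and a median difference of 0.109 points among 2054 clusters. Over 5 kb from gene ends 329 of 2440 gained, and beyond 1 kb the median difference was 0.159 points. A minimum difference of 50 points gave 279 gains and 1 loss, and 10 points gave 26 losses. Divided calls left 3 losses and 344 gains. Under the other alternatives the number of gains lay between 445 and 661. Of 138 named clusters, 63 were called, 14 lost their call with divided calls, and none reversed under any alternative in which it was evaluated. The 138 hold those the naming rule gave and the gained clusters with a RefSeq start inside, which were added after their values were seen. With a start inside, 9 gains became 4 with divided calls. Clusters of few calls, such as that of Spag1, give wide intervals.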

Other observations

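On the X chromosome, outside the set described above, 5 of 100 clusters inside genes and off their ends gained (5.00%) and none lost, 3 of the gains also with divided calls. By the same rules, clusters at 70% or more in both groups included 12 that gained, and 102 clusters lay between 10% and 70% in both, of which 33 gained and 2 lost. In the gained clusters, 2381 of 6379 CpGs at 10% or less in 5M-GS were at 80% or more in 60M-GS (37.3%). Over all tested intragenic clusters it was 2383 of 132671 such CpGs (1.80%). The gained clusters were chosen by their higher level in 60M-GS, so a higher share in them follows from that choice.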
